A study of Mus musculus with 4 samples.

Results

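The platelet-derived growth factor (PDGF) system was followed through mouse adipose tissue by its 4 ligand genes and 2 receptor genes. These were Pdgfa, Pdgfb, Pdgfc, Pdgfd, Pdgfra and Pdgfrb, the 6 of 32290 features that carry those symbols, and all 6 were found. They were chosen by name and not by their values. PDGF ligands are secreted dimers that bring 2 receptor chains together, after which the chains phosphorylate each other and recruit signalling proteins. The receptor PDGFRα binds the A and C chains best, and PDGFRβ binds B and D, while C and D are secreted with a domain that proteases must remove first. In adipose tissue PDGFRα marks adipose stromal cells (ASC), which include adipocyte progenitors, PDGFRβ is found on ASC and on mural cells (pericytes and vascular smooth muscle cells), and PDGF-B from endothelial cells (EC) is known for drawing mural cells to vessels.

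Single-cell RNA was sequenced from 4 libraries, 1 for each combination of genotype and depot. KO mice were Tie2e-cre; TERTfl/fl; mTmG and WT mice were Tie2e-cre; TERT+/+; mTmG, so that both genotypes carried the Cre driven by Tie2 sequences, aimed at EC, and the membrane reporter. All mice were male, 7 months old and on a high-fat diet (HFD) for 5 months, and the depots were subcutaneous (SC) and intraperitoneal (IP) adipose tissue. How many mice went into a library is not given in the labels, which speak of both cells and nuclei. With 1 library in each group there were no replicates, so each interval below is a 95% interval for counting error only and no difference could be tested against the spread between mice.

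The libraries held 700 to 2115 barcodes, and 518 to 1866 cells of each were kept, with median depths of 6909 to 13047 unique molecular identifiers (UMIs, each standing for 1 captured RNA molecule). One irregularity concerned the ASC. Of the KO SC barcodes that passed the cell filters, 93 also occurred in WT IP, and 92 of these held 1.5% to 1.99% as many UMIs in KO SC as in WT IP. Among the repeated barcodes of KO SC, 77 carried ASC markers. The entry with fewer UMIs was left out, which took the ASC-like cells of KO SC from 207 to 130, and results are also given with these entries kept. The reason for the sharing was not tested. Tert itself, the targeted gene, had 3 UMIs in WT and 2 in KO of SC, and 8 and 9 in those of IP, and blood EC-like cells, the intended target, numbered 7 in all, so the deletion could not be checked. The line between kinds of EC was unstable. The 18 cells called lymphatic EC-like, for at least 3 lymphatic markers, held a median of 7 blood EC markers against 5 of their own, and under clustering 0 of the 7 and 0 of the 18 kept their class.

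Cells were put in classes by the UMIs of marker genes other than the 6 members. In SC there were 95 ASC-like cells of WT and 130 of KO, in IP there were 285 and 218, and a median of 8 of their 8 collagen and matrix markers was seen per cell, against 0 markers of the next class. Of the 728 ASC-like cells, 9 stood at the minimum number of markers and 14 at the minimum lead. Vascular classes were small. Mural-like cells numbered 4 in WT and 8 in KO of SC and 3 and 7 in those of IP, and mesothelial-like cells, from the lining of the abdominal cavity, were seen only in IP, with 4 in WT and 28 in KO.

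The members lie on 5 chromosomes as protein-coding genes. In GRCm38 coordinates, Pdgfa covers chromosome 5 from 138976014 to 138997370 on the minus strand, Pdgfb chromosome 15 from 79995874 to 80014977 on the minus strand, and Pdgfc chromosome 3 from 81036416 to 81214040 on the plus strand. Pdgfd covers chromosome 9 from 6168584 to 6378850 and Pdgfra chromosome 5 from 75152292 to 75198215, both on the plus strand. Genes with exons on the opposite strand overlap Pdgfa (6330403L08Rik, 15 UMIs in ASC-like cells) and Pdgfc (Gm16000, 5 UMIs), and those counts were small beside the members' own. Gm42802, on the opposite strand of Pdgfra, had 0 UMIs in ASC-like cells. Pdgfra is also overlapped by Gm42803 on the opposite strand and Mir7025 on its own strand, which were not among the features.

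The sequence just upstream of the transcription start is shown for the 4 members with a RefSeq promoter entry. A link between these sequences and the levels of the members was not tested. Each line gives the 250 bases before the start in GRCm38.p6, read 5′ to 3′ on the gene's strand, with matches to any of 4 short motifs in capitals.
Pdgfc (chr3:81036166-81036415, plus strand): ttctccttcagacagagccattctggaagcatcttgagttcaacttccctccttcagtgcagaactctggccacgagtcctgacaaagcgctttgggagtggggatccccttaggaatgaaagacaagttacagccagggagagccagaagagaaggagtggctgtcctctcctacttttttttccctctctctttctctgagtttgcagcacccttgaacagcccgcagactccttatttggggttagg
Pdgfd (chr9:6168236-6168485, plus strand): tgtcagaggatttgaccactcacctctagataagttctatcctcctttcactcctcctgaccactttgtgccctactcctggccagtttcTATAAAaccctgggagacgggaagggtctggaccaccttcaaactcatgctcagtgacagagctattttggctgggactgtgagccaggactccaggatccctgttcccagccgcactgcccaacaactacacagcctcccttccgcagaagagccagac
Pdgfra (chr5:75152001-75152250, plus strand): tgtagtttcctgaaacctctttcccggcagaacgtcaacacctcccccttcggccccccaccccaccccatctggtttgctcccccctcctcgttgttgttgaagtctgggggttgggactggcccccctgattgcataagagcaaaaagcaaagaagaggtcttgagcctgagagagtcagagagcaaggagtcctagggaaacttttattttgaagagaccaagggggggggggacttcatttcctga
Pdgfa (chr5:138994945-138995194, minus strand): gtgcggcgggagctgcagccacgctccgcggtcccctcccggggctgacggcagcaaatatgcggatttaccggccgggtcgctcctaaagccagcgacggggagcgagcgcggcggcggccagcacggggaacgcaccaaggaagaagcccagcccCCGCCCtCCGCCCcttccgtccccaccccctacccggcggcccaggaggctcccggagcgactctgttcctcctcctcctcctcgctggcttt
The motifs were searched on both strands and do not overlap one another. They were the TATA box as TATAAA, found in 12.4% of 32851 promoter windows of the same length, the CCAAT box as CCAAT in 33.8%, the GC box as GGGCGG in 32.7%, and the AP-1 site as TGACTCA in 4.46%. Pdgfd held a single TATA box that begins 160 bases before the start, and Pdgfa held 2 GC boxes on the opposite strand. The windows of Pdgfc and Pdgfra held none of the 4 strings. GC content was 72.4% for Pdgfa and lay between 50.8% and 54.4% for the other three. The RefSeq entries listed 2 starts for Pdgfa, and the one farther upstream is printed. That start lies inside the span of Pdgfa given above, which begins at 138997370 on the minus strand. The printed window of Pdgfa is therefore within that span and not upstream of it.

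The members came from different cells. Of all UMIs of a gene over the 4 libraries, ASC-like cells, 18.1% of the kept cells, held 94.7% for Pdgfra, 94.6% for Pdgfrb, 85.7% for Pdgfd and 79.1% for Pdgfc, but 31.2% for Pdgfa and 0.725% for Pdgfb. The ASC-like cells were deep and held 14265232 of the 43194080 kept UMIs, so the share of Pdgfa in them is no enrichment. Mural-like cells, 0.547% of the cells, held 33.0% of the Pdgfa UMIs. Pdgfb was thinly spread, with 138 UMIs in all. Of these T cell-like cells held 28.3%, though they were 46.1% of the kept cells. Cells left without a class (6.54% of the cells) held 19.6%, phagocyte-like cells (3.23%) 18.1% and natural killer (NK) cell-like cells (1.91%) 12.3%. So the C and D ligands and both receptors were found chiefly in the same stromal class, whereas the A and B ligands lay mostly outside it. Levels are given as CPM, the UMIs of the gene scaled to 1000000 UMIs of the class in that library.

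**Figure D1:**
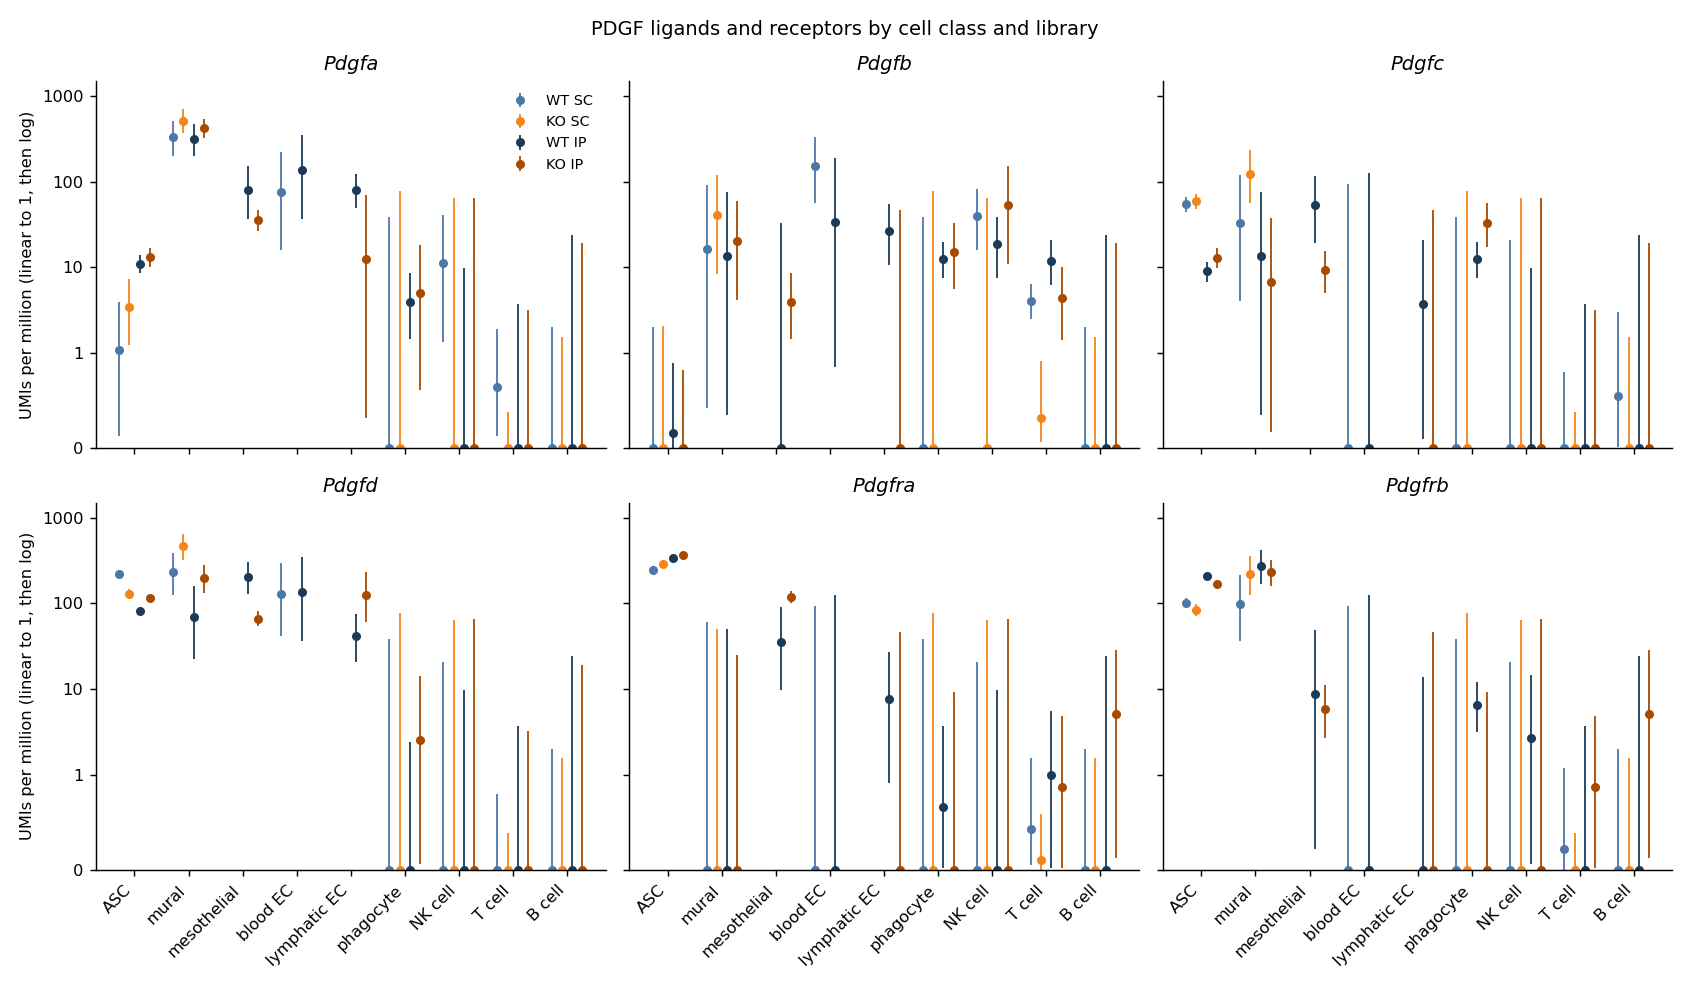
Level of each member by cell class and library, in CPM, on an axis that is linear to 1 and logarithmic above. Points are single libraries with at least 2 cells of the class, and bars are 95% Poisson intervals. Pdgfra lies between 249 and 371 in ASC-like cells and at 0 in mural-like cells, while Pdgfrb lies between 83.6 and 210 in the former and between 99.3 and 274 in the latter.

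Pdgfa, whose product acts mainly through PDGFRα, was high in mural-like cells and low in ASC-like cells. In mural-like cells of SC, Pdgfa stood at 331 CPM in WT and 519 in KO, in those of IP at 316 and 422, and 17 of the 22 cells held at least 1 UMI. The intervals of these 4 libraries overlapped. In ASC-like cells of SC it was at 1.10 CPM in WT from 2 UMIs and 3.41 in KO from 6, and in those of IP at 11 in WT from 68 and 13.1 in KO from 59. Lymphatic EC-like cells of WT IP, 14 in number, held 21 UMIs (79.6 CPM), and mesothelial-like cells held 54 UMIs in KO IP (35.6 CPM) and 9 in WT IP (79.9 CPM). T cell-like cells, the largest class, had 3 Pdgfa UMIs among 1854 cells, which sets the background.

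Pdgfb, the EC ligand for PDGFRβ, was seldom caught. Blood EC-like cells held 6 UMIs in 2 cells of WT SC and 1 UMI in 3 cells of WT IP, and the single cells of KO SC and KO IP held 0. Those last were shallow, with 1466 and 2092 UMIs, so a count of 0 still allowed 2046 and 1434 CPM, and KO and WT EC could not be compared. Lymphatic EC-like cells held 7 UMIs in 3 of 14 cells of WT IP (26.5 CPM) and 0 UMIs in 4 cells of KO IP. Mural-like cells held 8 UMIs in 6 of 22 cells. In ASC-like cells, Pdgfb had 0 UMIs in WT SC, KO SC and KO IP and 1 UMI in WT IP.

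Outside the vasculature, Pdgfb was found in lymphoid and myeloid cells. NK cell-like cells of IP held 7 UMIs among 40 cells of WT (18.6 CPM, 7.48 to 38.3). In KO they held 3 UMIs among 9 cells (52.9 CPM, 10.9 to 155). Those of SC held 7 UMIs among 20 cells of WT (39.5 CPM, 15.9 to 81.3). The 8 cells of KO SC held 0 UMIs, which still allowed 52.3 CPM, and no order of the genotypes is read from these counts. Phagocyte-like cells (macrophages, monocytes and dendritic cells) held 19 UMIs in 11 of 92 cells of WT IP and 6 UMIs in 2 of 29 cells of KO IP. T cell-like cells were the only class besides ASC-like cells with enough cells and UMIs for a ratio of KO to WT in a member. In SC their Pdgfb count was 19 UMIs in WT (4.11 CPM, in 17 of 456 cells) and 3 UMIs in KO (0.315 CPM, in 3 of 1151 cells), a log2 ratio of -3.52 (-6.11 to -1.94). With every cell thinned to 3000 UMIs, 1.36% of the WT cells and 0.0882% of the KO cells held a Pdgfb UMI. The gene was thus lower in KO SC by more than counting error, in a comparison in which 14.5% of all genes compared were at least 1.5-fold lower, 4.5% were at least 1.5-fold higher, and the median gene stood at -0.15. In IP the T cell-like cells held 12 Pdgfb UMIs in WT and 5 in KO, too few for a ratio under the minimum of 20.

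Pdgfc, a ligand of PDGFRα that needs proteolysis, was higher in the ASC-like cells of SC than in those of IP. Its level in ASC-like cells of SC was 54.9 CPM in WT and 59.1 in KO, against 9.04 and 12.9 in those of IP. Both SC libraries stood above both IP libraries, with no overlap of the counting intervals. At least 1 UMI was seen in 42.1% of the SC cells of WT and 28.5% of those of KO, but in 7.02% and 7.80% of the IP cells. In IP the few positive cells carried much of the count, since the 5 highest cells held 60.7% of the Pdgfc UMIs in WT and 70.7% in KO. Phagocyte-like cells of IP also held Pdgfc in a few cells, with 19 UMIs in 4 WT cells and 13 UMIs in 2 KO cells.

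Pdgfd, a ligand of PDGFRβ activated by proteases in the same way, was the most counted ligand. ASC-like cells of SC held it at 222 CPM in WT and 129 in KO, and those of IP at 82.6 in WT and 116 in KO. Here WT SC was highest and WT IP lowest, and the KO libraries lay between them in both depots. The highest cell of WT SC held 44 Pdgfd UMIs, the 5 highest held 33.9% of that library's count, and 13 of its 95 cells held at least 10 UMIs, against 3 of 130 in KO SC. Mural-like cells carried Pdgfd too, at 232 CPM in WT and 464 in KO of SC and 68.6 and 197 in those of IP, from 5 to 34 UMIs. T and B cell-like cells held none.

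**Figure D2:**
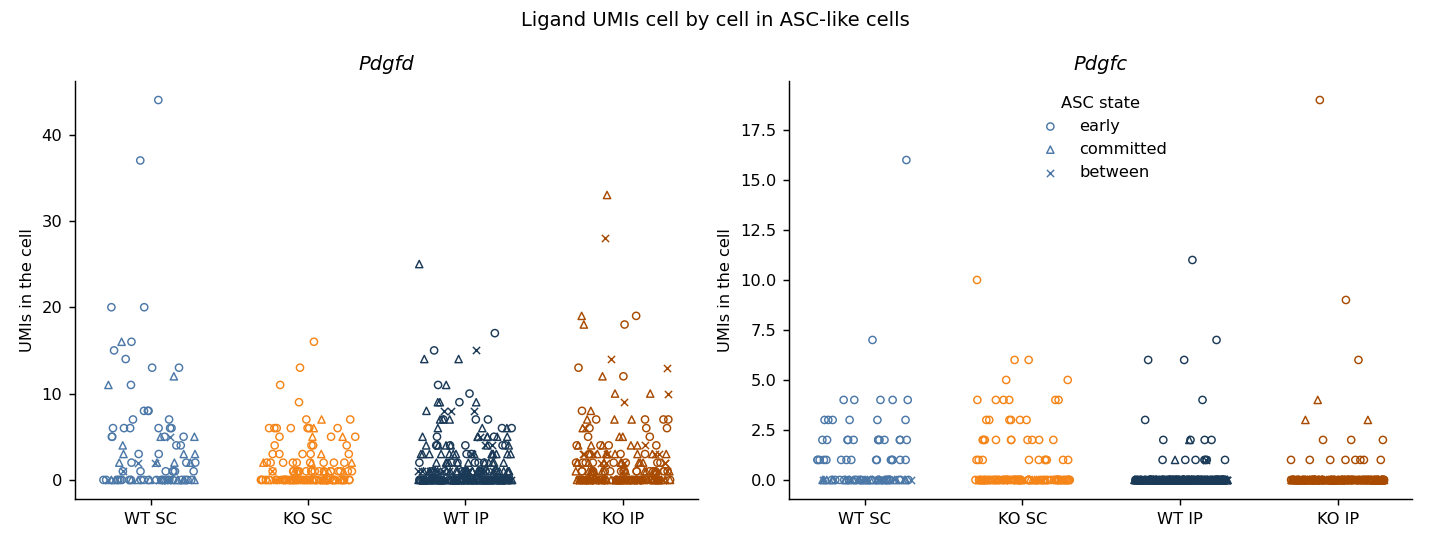
Pdgfd and Pdgfc UMIs in each ASC-like cell of the 4 libraries, 1 symbol per cell, with the shape giving the ASC state by marker genes. WT SC holds the highest Pdgfd cell, at 44 UMIs, and most cells with Pdgfc are early cells (circles).

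The receptor Pdgfra was at 249 CPM in WT and 292 in KO in ASC-like cells of SC, and at 340 and 371 in those of IP. It was seen in 69.5%, 77.7%, 83.2% and 82.1% of the cells in that order, against 0.270% of the T cell-like cells (median 8069 UMIs per cell, against 19855 in ASC-like cells), which gives the background. Mural-like cells held no Pdgfra UMI in any of 22 cells. Mesothelial-like cells, by contrast, did hold it. In KO IP, 16 of 28 carried 181 Pdgfra UMIs (119 CPM), up to 33 in 1 cell, and in WT IP 2 of 4 carried 4 UMIs. These were the deepest cells in the data, with a median of 67788 UMIs in the Pdgfra-positive ones and 29724 in the others, and they carried a median of 6 ASC markers either way. The ASC marker Dpt was at 0 in the positive cells, while it stood at 1948 CPM in the ASC-like cells of KO IP. Lum stood at 44.3 CPM against 1865, and Col1a1, a further ASC marker, at 621 against 3035. The cells without Pdgfra were alike, with Dpt at 0, Lum at 30.9 CPM and Col1a1 at 698 CPM. A share of doublets with ASC was not tested beyond these values.

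Pdgfrb, the other receptor, stood at 102 CPM in WT and 83.6 in KO in ASC-like cells of SC, and at 210 and 169 in those of IP. Both IP libraries were above both SC libraries. Among mural-like cells the level was 99.3 CPM in WT and 219 in KO of SC and 274 and 231 in those of IP, and 15 of 22 cells held a UMI. The mural-like cells fell into cells with at least 25 UMIs of Rgs5, a pericyte marker, and cells with at most 1. Pdgfrb was seen in 9 of 9 of the former (313 CPM) and in 6 of 13 of the latter (111 CPM). Pdgfd ran the other way, at 110 CPM in the Rgs5-rich cells and 362 CPM in the rest, and Pdgfa was alike in both, at 439 and 368 CPM with overlapping intervals. The Rgs5-rich cells held 6747 UMIs or more, while the rest reached down to 546, and the libraries were mixed unequally between the groups. The part of depth or library in these differences was not tested. This split was chosen after the values were seen.

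Both receptors were often seen in the same ASC-like cell. The share of cells with UMIs of both was 46.3% in WT and 43.8% in KO of SC, and 72.3% and 70.6% in those of IP. After every cell was thinned to 3000 UMIs, which left out 17 to 37 shallower cells per library, it was 11.8%, 7.96%, 25% and 23.2%. The products of the separate shares of the 2 receptors were 9.87%, 7.75%, 26.6% and 23.7% for the thinned cells, close to the shares with both. The balance of the receptors also differed. Per 100 Pdgfra UMIs there were 40.8 Pdgfrb UMIs in WT and 28.7 in KO of SC, and 61.7 and 45.4 in those of IP.

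**Figure D3:**
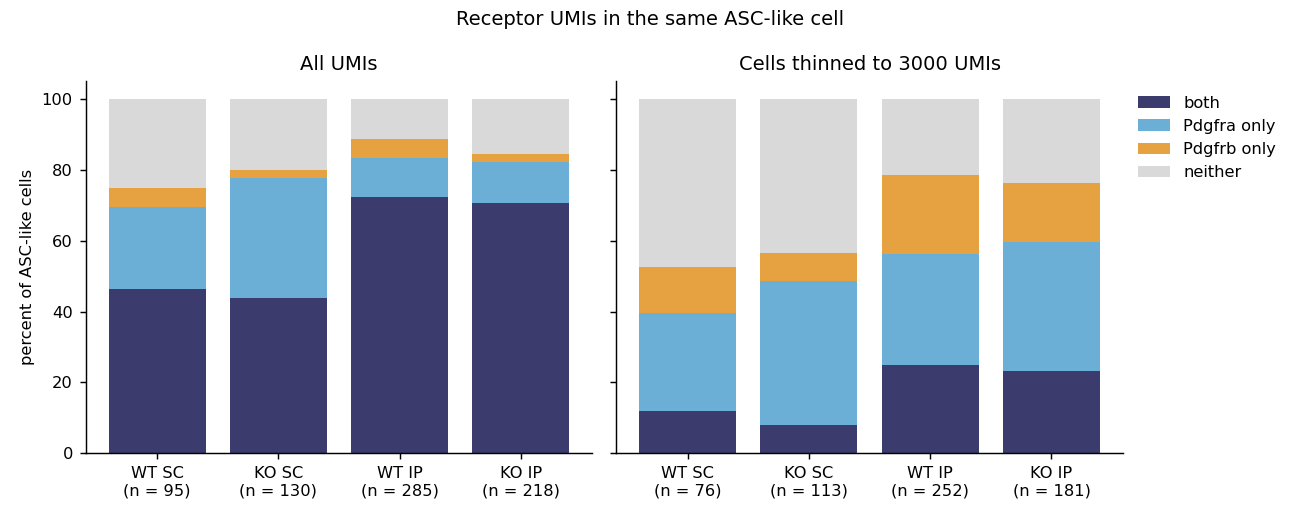
Percent of ASC-like cells with UMIs of both receptors, of one, or of neither, for each library, from all UMIs (left) and after thinning each cell to 3000 UMIs (right), with the number of cells under each bar. The share with both is larger in the IP libraries than in the SC libraries on either side, 25% and 23.2% against 11.8% and 7.96% after thinning.

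Whether the KO differed from WT in ASC was asked within each depot, over genes that had 20 UMIs or more in the summed pair of libraries. In SC, 4 members could be compared. Pdgfd was lower in KO, with 227 UMIs against 404 and a log2 ratio of -0.78 (-1.02 to -0.54), and Pdgfra was slightly higher, at 0.23 (0.05 to 0.42). The intervals of Pdgfc, at 0.11 (-0.30 to 0.52), and Pdgfrb, at -0.28 (-0.60 to 0.04), included 0. So 1 of 4 members was at least 1.5-fold lower and 0 were at least 1.5-fold higher, where 9.24% and 9.21% of the 9900 genes compared were. With the repeated barcodes kept the ratios were -0.79 for Pdgfd, 0.23 for Pdgfra, 0.07 for Pdgfc and -0.19 for Pdgfrb.

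The share of cells with Pdgfd did not follow its level in SC. After thinning, 28.9% of the WT SC cells (19.1% to 40.5%) and 30.1% of the KO SC cells (21.8% to 39.4%) held a Pdgfd UMI, and no order is read from these shares. With each cell weighted equally the log2 ratio was -0.54, which is under 1.5-fold, so that 0 of 4 members passed in SC. The median depth of the ASC-like cells was 20841 UMIs in WT SC and 14452.5 in KO SC, and its part in the ratio was not tested.

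In IP, the direction of Pdgfd was the opposite. Its count was 522 UMIs in KO and 512 in WT, in a smaller KO total, giving a log2 ratio of 0.49 (0.31 to 0.67). Pdgfrb was lower in KO, with 757 UMIs against 1300, at -0.31 (-0.45 to -0.18), and Pdgfra was higher by little, at 0.13 (0.03 to 0.22), which becomes 0.07 relative to the median gene. The intervals of Pdgfa, at 0.26 (-0.27 to 0.79), and Pdgfc, at 0.52 (-0.04 to 1.07), included 0. None of the 5 members passed 1.5-fold in either direction, where 10.1% of the 12367 genes compared were higher and 6.49% lower. The opposite directions of Pdgfd in the depots were not tested against each other, since each rests on 1 library per group.

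Markers of other cells were looked at beside these ratios. The summed level of 9 mural markers in ASC-like cells of IP was 310 CPM in WT and 105 in KO, and in those of SC it was 82.9 and 52.3. The sum was thus lower in KO in both depots, but the markers did not move as one. In IP 6 of the 9 were lower in KO and 3 were higher, among them Kcnj8 (0.807 CPM in WT and 16.3 in KO) and Abcc9 (4.2 and 18.0). A single cell of KO IP held 48 of its 73 Kcnj8 UMIs. In SC 4 were lower and 4 higher, where single cells of WT held 32 of its 33 Acta2 UMIs and 44 of its 49 Tagln UMIs. Tagln, a smooth muscle gene, made up 138 CPM of the sum in WT IP and 15.6 in KO IP, with 230 UMIs in 1 cell of WT IP. Rgs5 was near 0 throughout, at 0.807 and 1.78 CPM in IP. Their part in the Pdgfrb difference was not tested. Blood EC markers summed to 28.9 CPM in WT IP and 54.1 in KO IP, with 3 of 8 at 0 in each. The 8 mesothelial markers summed to 144 CPM in WT IP, with 5 at 0, and to 263 CPM in KO IP, with 1 at 0. Their sum was higher in the library with the higher Pdgfd of IP. Pdgfd stood at 66.6 CPM in mesothelial-like cells of KO IP and at 116 CPM in the ASC-like cells. The part of the mesothelial markers in the Pdgfd difference was not tested.

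**Figure D4:**
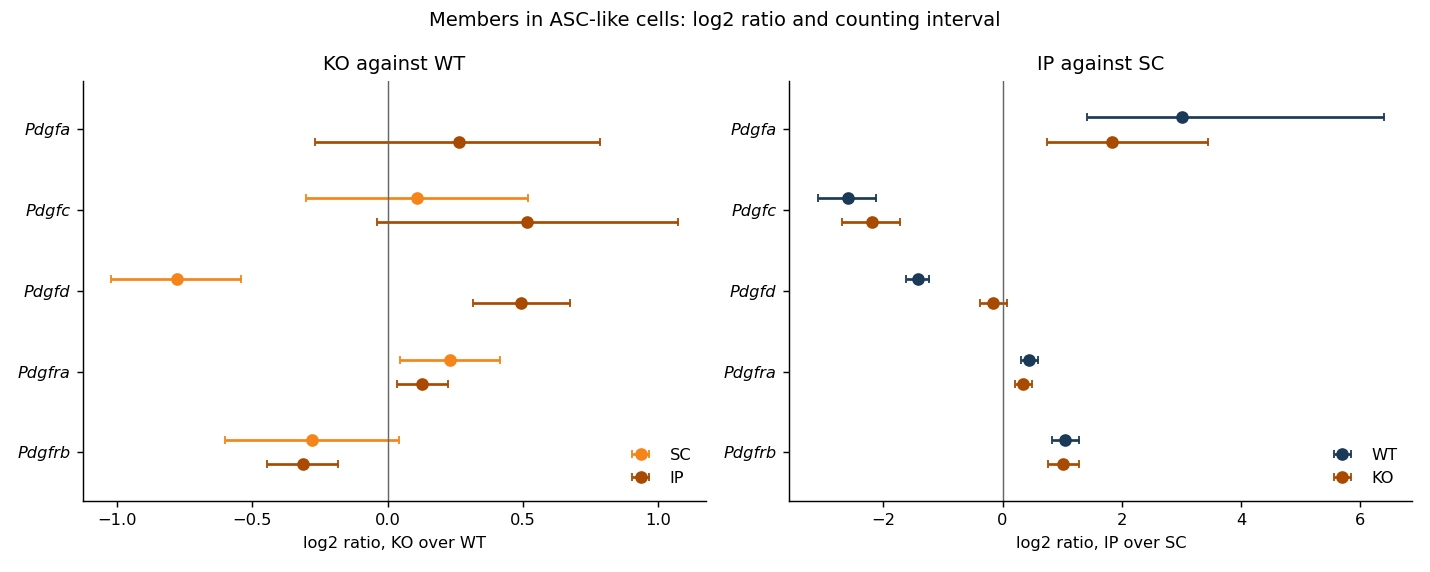
Log2 ratios of the members in ASC-like cells, KO over WT in each depot (left) and IP over SC in each genotype (right), with bars for the 95% counting interval. Pdgfd lies at -0.78 in SC and 0.49 in IP on the left, and on the right Pdgfc lies below 0 and Pdgfrb above 0 in both genotypes.

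The depots were compared within each genotype. In WT, IP against SC gave log2 ratios of 3.01 (1.41 to 6.40) for Pdgfa, from 2 UMIs in SC, -2.60 (-3.10 to -2.12) for Pdgfc, -1.42 (-1.62 to -1.23) for Pdgfd, 0.45 (0.30 to 0.60) for Pdgfra and 1.04 (0.82 to 1.28) for Pdgfrb. That is 2 members higher and 2 lower by at least 1.5-fold of 5, where 18.8% and 14.5% of the 11756 genes compared were. In KO the values were 1.84 (0.74 to 3.45) for Pdgfa, -2.19 (-2.68 to -1.72) for Pdgfc, -0.15 (-0.38 to 0.08) for Pdgfd, 0.35 (0.20 to 0.49) for Pdgfra and 1.01 (0.76 to 1.28) for Pdgfrb, with 2 higher and 1 lower where 20.9% and 12.9% of genes were. Pdgfrb fell under 1.5-fold, to 0.48 in both genotypes, when the early and committed states of ASC, called by marker genes, were weighted equally. These ratios share their libraries with the comparisons of KO and WT. The near-equal Pdgfd of the KO depots follows from its depot ratio in WT and its 2 opposite genotype ratios, and is no separate result.

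ASC are known to include early progenitors, marked by Dpp4 and Pi16, and cells committed to adipogenesis, marked by genes such as Pparg and Lpl. Calling each ASC-like cell by 5 early and 6 committed markers gave 64.2% early cells in WT and 70.8% in KO of SC, and 22.5% and 32.1% in those of IP. Committed cells made up 25.3%, 20.8%, 57.5% and 38.5% in the same order, or 24, 27, 164 and 84 cells, so the committed cells of SC were few. The members were not used for the call, and the remaining cells stood between. One committed marker, Cd36, was at 12.6 CPM in ASC-like cells of WT IP and 0.669 in KO IP, and without it the committed shares were 24.2%, 20.8%, 56.8% and 38.5%.

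Pdgfc belonged to the early cells. In SC it had 100 UMIs in 61 early cells of WT and 104 UMIs in 92 early cells of KO, and 0 UMIs in the committed cells of either, which makes early cells at least 15.2-fold higher in WT and at least 11.8-fold higher in KO against a floor of 3 counts per library. With the counting error of the early cells included, the lower limits of the log2 ratio were 3.60 and 3.23. In IP it had 52 UMIs in early and 3 in committed cells of WT, a log2 ratio of 5.22 (3.8 to 7.75), and 48 and 10 in KO, a ratio of 2.54 (1.59 to 3.74).

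Pdgfrb ran against it, lower in early than in committed cells in each library. The levels were 52.3 CPM in early and 208 in committed cells of WT SC, and 37.4 and 197 in those of KO SC. In IP they were 110 and 253 in WT, and 129 and 197 in KO. The log2 ratios in the same order were -1.99 (-2.46 to -1.54), -2.39 (-2.94 to -1.87), -1.20 (-1.45 to -0.97) and -0.61 (-0.86 to -0.36).

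For Pdgfra and Pdgfd, the ratios between the states lay farther from 0 in SC than in IP. Pdgfra was lower in the early cells of SC, with log2 ratios of -1.29 (-1.57 to -1.01) in WT and -1.05 (-1.31 to -0.78) in KO, but stood at 0.20 (0.05 to 0.35) in WT IP and -0.06 (-0.23 to 0.10) in KO IP. Pdgfd was higher in the early cells of SC, at 1.07 (0.70 to 1.47) in WT and 0.73 (0.24 to 1.29) in KO, and stood at 0.40 (0.11 to 0.69) in WT IP and 0.04 (-0.25 to 0.33) in KO IP. Between early and committed cells, 2 of 4 members compared were at least 1.5-fold higher and 2 lower in WT SC (22.9% and 20.7% of all genes) and in KO SC (19.9% and 25.3%). In IP 1 of 5 was higher and 1 lower in WT (14.3% and 13% of genes) and in KO (9.99% and 13.8%).

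**Figure D5:**
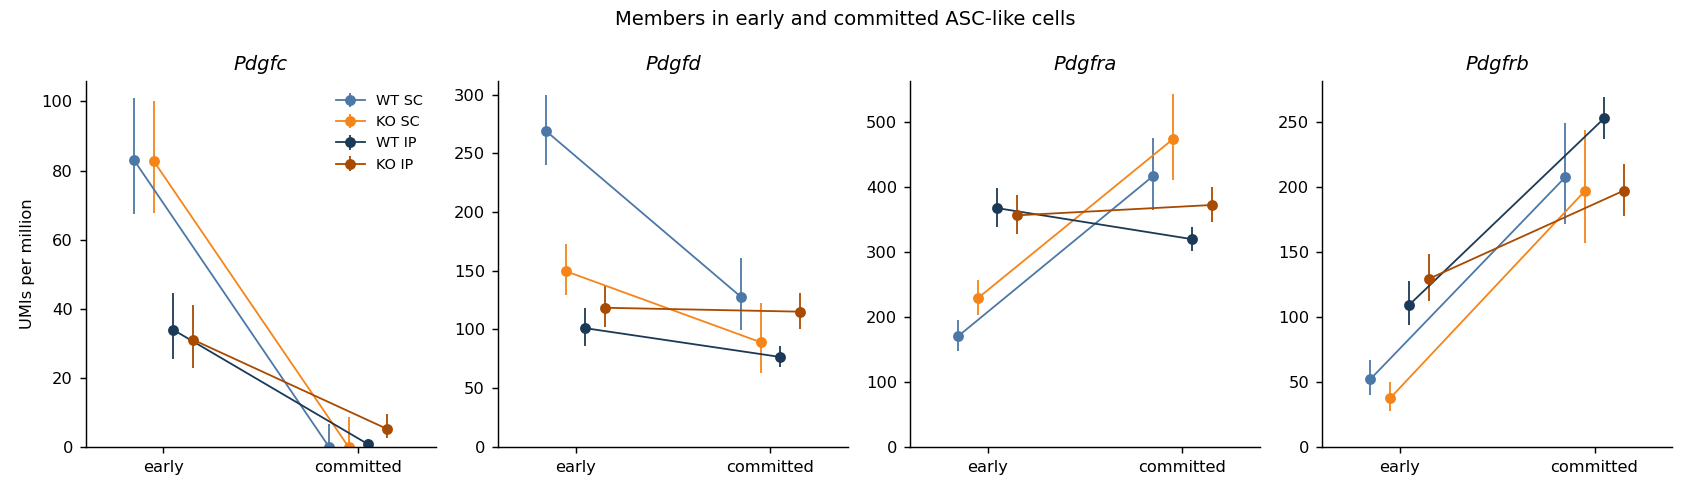
Level of Pdgfc, Pdgfd, Pdgfra and Pdgfrb in early and committed ASC-like cells of each library, in CPM, with 95% Poisson intervals. Pdgfc falls from 82.9 to 0 in WT SC, Pdgfrb rises toward committed cells in all 4 libraries, and Pdgfra rises from 171 to 417 in WT SC and from 229 to 474 in KO SC.

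Since the depots differed in these states, the depot comparison was repeated within them. Among early cells, Pdgfra was higher in IP than in SC, at log2 1.10 (0.87 to 1.34) in WT and 0.64 (0.43 to 0.85) in KO, while among committed cells it was lower, at -0.39 (-0.59 to -0.17) and -0.35 (-0.57 to -0.11). Pdgfrb was higher in the early cells of IP, at 1.06 (0.64 to 1.51) in WT and 1.78 (1.33 to 2.28) in KO, but in the committed cells it stood at 0.28 (0.00 to 0.58) in WT and 0.00 (-0.34 to 0.36) in KO. Pdgfc stayed lower in the early cells of IP, at -1.28 (-1.80 to -0.79) and -1.41 (-1.94 to -0.91), nearer to 0 than the -2.60 and -2.19 of the whole class. Pdgfd was lower in IP in both states of WT, at -1.41 (-1.70 to -1.13) in early and -0.74 (-1.12 to -0.34) in committed cells. In KO it stood at -0.34 (-0.64 to -0.04) in early cells and at 0.35 (-0.13 to 0.91) in committed cells.

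The genotype comparison was repeated within the states too, without a test of one state against the other. In SC, Pdgfd was lower in KO among early cells, 150 CPM against 269 and log2 -0.84 (-1.11 to -0.58), and stood at 89.1 against 128 CPM among committed cells, -0.51 (-1.13 to 0.07). In IP, Pdgfd was higher in KO among committed cells, 115 CPM against 76.6 and log2 0.59 (0.33 to 0.84), and stood at 0.23 (-0.09 to 0.55) among early cells. Pdgfrb of IP was lower in KO among committed cells, at -0.36 (-0.53 to -0.19), and stood at 0.24 (-0.06 to 0.55) among early cells. Pdgfra of SC was higher in KO among early cells, at 0.42 (0.16 to 0.69). Pdgfc of early cells was nearly equal between the genotypes, at 0.00 (-0.41 to 0.41) in SC and -0.13 (-0.72 to 0.47) in IP.

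Proteins that process or bind PDGF ligands formed a list of 8 genes, all compared in ASC-like cells. In SC 0 were at least 1.5-fold higher in KO and 2 lower, Sparc at -0.77 (-0.81 to -0.73) and Thbs1 at -0.71 (-1.04 to -0.39), where 9.21% and 9.24% of all genes were, and the list median was -0.15 beside -0.01 for all genes. Sparc encodes a matrix protein that binds PDGF-B, and Thbs1 encodes thrombospondin 1, an adhesive matrix protein. In IP 1 of 8 was lower, Thbs1 at -1.22 (-1.32 to -1.12), where 6.49% of all genes were, with Sparc at -0.43 (-0.46 to -0.41) and a median of 0.02 beside 0.06 for all genes. The activating proteases differed little. Plau, which encodes the urokinase that can activate PDGF-DD, stood at 0.23 (-0.15 to 0.60) in SC and 0.33 (0.18 to 0.48) in IP. Between depots, IP was lower in Plat, encoding the tissue plasminogen activator that can activate PDGF-CC, by log2 -0.94 (-1.07 to -0.82) in WT and -0.96 (-1.08 to -0.83) in KO, and higher in Plau, by 0.90 (0.62 to 1.20) and 1.0 (0.73 to 1.29).

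Downstream of the receptors, none of 19 adaptor and effector genes passed 1.5-fold in either depot, with medians of 0.10 in SC and 0.06 in IP. The lowest in SC were Ptpn11, encoding the phosphatase SHP2, at -0.55 (-0.93 to -0.19) and Akt1, encoding a survival kinase, at -0.53 (-0.91 to -0.16). Among 10 negative regulators, 0 passed in SC (median -0.07) and 1 was higher in IP (median 0.13, and 10.1% of all genes higher), Spry2, a Sprouty inhibitor of receptor signalling, at 0.60 (0.40 to 0.80), which falls under 1.5-fold when the median gene is set to 0. Immediate early genes, which PDGF induces but which tissue dissociation induces too, had medians of opposite sign in the depots. In SC 3 of 6 were higher in KO, Ier2 at 0.85 (0.69 to 1.01), Egr1 at 0.73 (0.65 to 0.82) and Myc at 0.66 (0.39 to 0.94), with a median of 0.49, where 9.21% of all genes were higher. In IP 0 of 6 passed and the median was -0.25, with Junb at -0.42 (-0.47 to -0.38) and Egr1 at 0.48 (0.43 to 0.53).

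The relatives of the 2 gene families were given the same look. Of 5 VEGF relatives in SC, Vegfa, the main angiogenic factor, was higher in KO at 0.91 (0.62 to 1.20) and Pgf, placental growth factor, lower at -1.08 (-1.72 to -0.49), 1 of 5 each way where 9.21% and 9.24% of all genes were. In IP, Vegfd was higher in KO at 0.63 (0.51 to 0.75), 1 of 4 compared, where 10.1% of all genes were. Among the receptor relatives, Kit and Flt3 had 3 and 2 UMIs in all ASC-like cells. Csf1r, the receptor of macrophage growth factor, had 87 UMIs in those of WT IP and 39 in KO IP, where the 5 highest cells held 57.5% and 59.0% of the count.

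Genes that ran most like each member were sought over 12 sums of a class in a library with at least 30 cells, by Pearson's r of log2(CPM + 1) over 13517 genes with at least 50 UMIs. The points share libraries and depth, and 8 of the 12 are immune classes in which most members are near 0, so r mainly reflects the step between ASC-like and immune cells. For Pdgfd the leading genes were Gm10855, Gpc4, Ccn5, Ntrk2 and Agtr1a, all with r of 0.999. Pdgfra ran closest to Cavin3, Ccl11, Ccdc80, Htra1 and Col6a1 (r of 0.997 to 0.998), and genes close to Pdgfrb included Ifi205, Fer, Fam102b and Col4a1 (0.989 to 0.994). Pdgfc was led by Mcf2l and Dmkn (0.987 and 0.985) and Pdgfa by Cyp7b1 and Neurl1b (0.984 and 0.982). Pdgfb was led by the chemokine genes Ccl4 and Ccl3 (0.961 and 0.95). No vascular class reached 30 cells in a library, so the r of Pdgfb leaves out its vascular UMIs. Between members, r was 0.989 for Pdgfd and Pdgfra and -0.540 for Pdgfb and Pdgfra.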

How the data were processed

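Single-cell libraries had been made with the 10x Genomics Chromium 3′ v3 kit. Cell Ranger 7.0.0 is named in the file headers as the tool with which the authors made the deposited tables of raw UMI counts, and the submitters' processing notes also name STAR 2.6 and the build mm10. The intron setting and the cell calling are not given in the sources used here. Counted introns would raise long genes such as Pdgfd.

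Kept barcodes had 200 genes or more and no more than 25% mitochondrial UMIs. Entries of barcodes found with more UMIs in another library, 94 in number, were removed. Of the 4042 barcodes left, Scrublet (in scanpy 1.11.5, expected rate 5%) marked 18 as doublets, or 0.445%, and these were removed too. A cell took the class with most of its markers seen, at least 3, and a lead of 2 over other kinds of cell, so that 263 stayed unassigned, 52 of them 1 short of the lead. EC were scored as one kind by the larger of the 2 marker counts and called lymphatic with at least 3 lymphatic markers. Cells with 5 mesothelial markers were called mesothelial-like whatever else they held. Macrophages, monocytes and dendritic cells were merged as phagocytes. Early and committed ASC needed at least 2 markers of the state and more than of the other. This scoring was set after marker and member counts were seen. The members, lists and markers were chosen with earlier results of these data known.

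Counts were summed by class and library and scaled to the class total (CPM). Ratios used 0.5 added UMI and needed 20 UMIs, and carry exact conditional binomial intervals. Ratios of whole classes also needed 30 cells in each library. Ratios within or between the ASC states had no minimum of cells, and the committed cells of SC numbered 24 in WT and 27 in KO. Levels carry exact Poisson and shares exact Clopper-Pearson intervals, all at 95% and for counting error only. A count of 0 was read as up to 3 counts. No p-value was computed, as each group was 1 library. The ratio and its interval were tested on simulated data with known changes. Genes named from lists were up to 4 per list with the largest ratios between KO and WT in ASC-like cells, Plat being added after its values were seen, and the 5 most alike per member, of which 2 to 5 are reported here. Coordinates came from GENCODE of GRCm38 and promoters from RefSeq. The work used pandas 2.3.3, numpy 2.4.6, scipy 1.17.1 and igraph 0.11.9 under Python 3.11.15, with plots by matplotlib 3.10.9.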

Additional observations from a re-analysis of the deposited data

Results flagged for a closer look

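Pdgfd in ASC-like cells moved in opposite directions between KO and WT in the depots, with a log2 ratio of -0.78 in SC and 0.49 in IP. Each value rests on 1 library per group, and the difference between them was not tested.

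Member UMIs were also present in barcodes that the comparisons left out, above the limit of 3 that a count of 0 allows. The repeated barcodes of KO SC held 5 Pdgfd, 15 Pdgfra and 14 Pdgfrb UMIs. Barcodes marked as doublets of WT IP held 10 Pdgfd, 14 Pdgfra and 13 Pdgfrb UMIs, those of KO IP held 10 Pdgfra and 5 Pdgfrb UMIs, and those of KO SC held 11 Pdgfra UMIs.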

How the results depend on the processing

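Each result was recomputed under other filters, classes, scalings and weights, giving 269 values. Of these, 239 stayed within their limit and 30 moved beyond it. The limit was the counting interval of the main value, or 1.5-fold for counts of pathway genes. Shares of cells after thinning were among the values, and these fall by construction as UMIs are removed. No called ratio changed sign. With cells weighted equally, Pdgfd in SC went to -0.54 for KO against WT and, in WT, to -1.20 for IP against SC, and in IP the uncalled KO ratios of Pdgfa and Pdgfc went to -0.46 and -0.066. With early and committed cells weighted equally, an alternative chosen after seeing the data, the IP ratio of Pdgfrb for KO against WT was -0.15. The ratios of IP against SC were then -1.26 for Pdgfc, -1.16 for Pdgfd, 0.23 for Pdgfra and 0.48 for Pdgfrb in WT, and -1.19, 0.053 and 0.48 for Pdgfc, Pdgfra and Pdgfrb in KO.

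The share of a member's UMIs in ASC-like cells was 6.52% for Pdgfb, 83.5% for Pdgfd and 93.4% for Pdgfra with classes from clustering. With cells weighted equally it was 73.7% for Pdgfc, 80.1% for Pdgfd, 97.1% for Pdgfra and 91.8% for Pdgfrb. Scaling by the median gene left 0 pathway genes at least 1.5-fold higher in KO IP. After thinning, ASC-like cells with Pdgfra made up 39.5% in WT and 48.7% in KO of SC and 56.3% and 59.7% in those of IP, and those with Pdgfrb 25%, 15.9%, 47.2% and 39.8%. With the repeated barcodes kept, another late alternative, the KO SC shares were 55.1% and 34.8%. The cause was not tested beyond each alternative's own construction.

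No paired analysis was possible because each group was 1 library. Vascular cells were too few for any ratio, and no library had a replicate to set aside.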
